A study of Mus musculus with 6 samples.

Results

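The genes described here encode the machinery that sorts cytotoxic granules, carries them to the immune synapse and fuses them with the plasma membrane of natural killer (NK) cells. They were chosen by name, from what their products do: Unc13d, Rab27a, Stx11, Stxbp2, Lyst, Ap3b1, Lamp1, Vamp7, Vamp8 and Snap23. The choice was made with earlier results of these data known. All 10 genes were listed among the 14490 genes of the deposited table. The samples were splenic NK cells of C57BL/6 mice purified by flow sorting, 3 from Mettl3fl/fl mice (WT) and 3 from Ncr1Cre-Mettl3fl/fl mice (cKO, with Cre on 1 of the Ncr1 alleles), so that both groups carried the floxed Mettl3 alleles and the cKO group also carried Cre. Cre was expressed from the Ncr1 locus, which encodes the receptor NKp46 and is active in NK cells and some other innate lymphoid cells. Mice in the study were 6 to 10 weeks old, and no treatment was given for these samples. METTL3 is the catalytic subunit of the complex that writes N6-methyladenosine (m6A) into messenger RNA. The comparison asked how the steady-state messenger RNA of the granule machinery differed when NK cells lacked METTL3.

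An NK cell kills a target by releasing perforin and granzymes from secretory lysosomes. Granule proteins are sorted with the help of the adaptor complex AP-3, and the size and identity of the lysosomes depend on LYST. The granules then move along microtubules to the synapse, where the small GTPase RAB27A, in its active form, tethers them and its partner Munc13-4, the product of Unc13d, primes them for fusion. Fusion itself is driven by SNARE proteins, coiled-coil proteins on the granule and on the plasma membrane that zip together. Syntaxin-11 and SNAP23 act on the plasma membrane side, VAMP7 and VAMP8 on the vesicle side, and Munc18-2, the product of Stxbp2, binds syntaxin-11 and assists its assembly. Inherited loss of Munc13-4, syntaxin-11 or Munc18-2 causes familial hemophagocytic lymphohistiocytosis, and loss of RAB27A, LYST or the AP-3 subunit encoded by Ap3b1 causes the Griscelli, Chediak-Higashi and Hermansky-Pudlak syndromes. LAMP1, also known as CD107a, is a protein of the granule membrane that reaches the cell surface when granules fuse, and is the usual stain for degranulation.

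The table held 55965515 to 71464042 reads on listed genes per sample, and samples of 1 genotype differed from each other by more than counting noise. Mettl3 itself, as a check of the labels, stood at 1192 to 1303 normalized counts in WT and 297 to 405 in cKO samples. Normalized counts are read counts divided by the authors' size factor for the sample. All 8 NK cell markers examined were present, and their summed level was 576903 to 606154 in WT and 531391 to 561984 in cKO samples, with 5 of the 8 lower and 1 higher in cKO. Gzma and Prf1 made up most of that sum, with WT means of 267263 and 139576. Ncr1, the locus that carries Cre in the cKO group only, fell most, by 0.40 on the log2 scale (limma, adjusted p = 3.56e-11). Tbx21 was the marker that rose, and Eomes and Klrd1 did not differ at an adjusted p under 0.05 (limma). B and plasma cell markers summed to 756 to 848 in WT and 1103 to 1171 in cKO, with 4 of 7 higher. T cell markers summed to 2521 to 2689 in WT and 2179 to 2390 in cKO, with 1 of the 6 listed lower. Of 7 markers of neutrophils, mast cells and basophils, 5, among them S100a8, S100a9 and Mpo, were not listed, and the other 2 summed to 75.0 to 108 in WT and 72.7 to 97.8 in cKO. Of 5 platelet markers 2 were listed, at 577 to 668 in WT and 518 to 608 in cKO, and neither differed. These values moved with genotype to different degrees, and their part in the results on the granule genes was not tested. In bulk RNA, fewer cells of an NK subset and less RNA per cell cannot be told apart.

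Of the 10 granule genes, 6 differed between the genotypes at an adjusted p under 0.05 (limma), 1 higher and 5 lower in cKO NK cells. Across all genes 36.6% passed this threshold, 17.8% as higher and 18.8% as lower in cKO. The same 6 granule genes had no overlap between the 3 cKO and 3 WT samples, against 45.7% of all genes (22.7% with cKO above WT and 23.0% with cKO below). Stx11 fell most, followed by Vamp7 and Snap23, while Rab27a rose, and small decreases were found for Ap3b1 and Stxbp2. The other 4, Lamp1, Vamp8, Unc13d and Lyst, did not pass the threshold. The median log2 fold change (cKO over WT) of the 10 genes was −0.09, against 0.0014 over all genes, and their median size regardless of sign was 0.11, against 0.17. The differences were thus mostly small, and the genes had many reads. The median normalized count was 6389 for the granule genes and 880 for all genes. Neither the share of genes called nor the median size was compared among genes of like count. When every sample was given the same total instead of the size factors, all genes shifted up by a median of 0.05 on the log2 scale, and the split of calls moved from 48.5% to 63.4% higher over all genes. The granule genes then gave 2 higher and 3 lower.

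**Figure D1:**
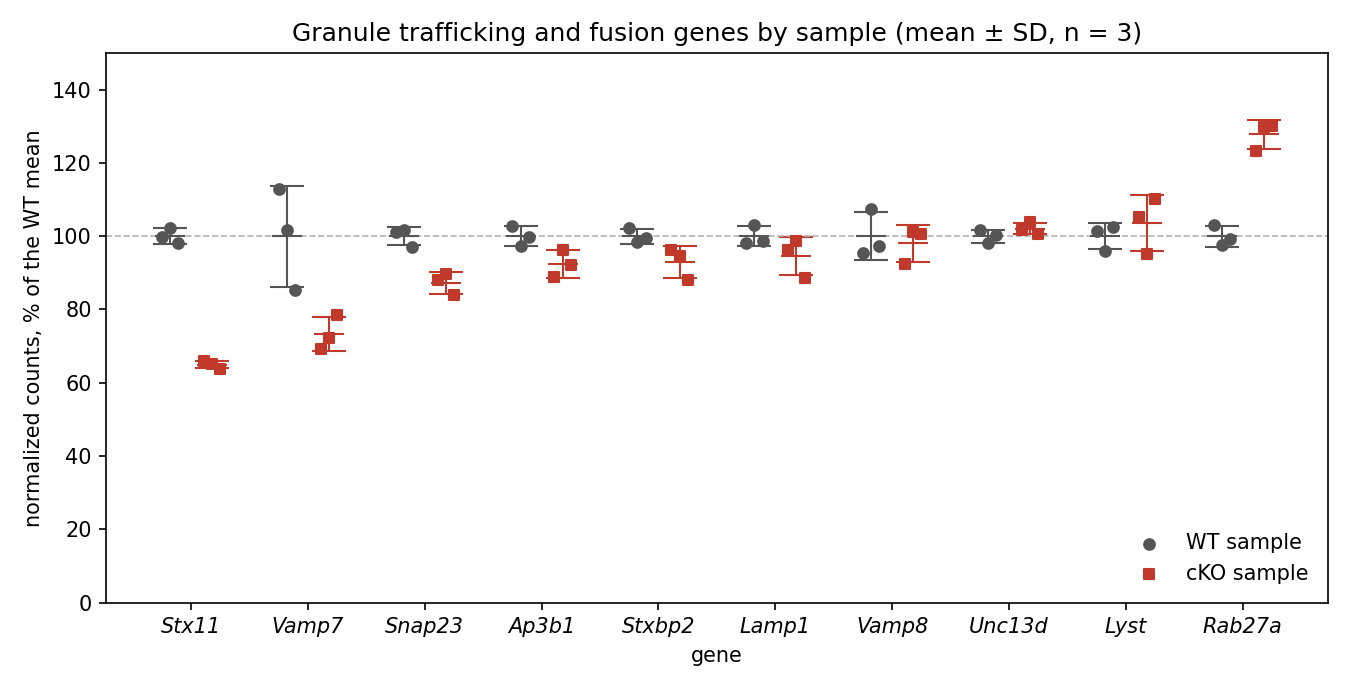
Normalized counts of the 10 granule genes in each sample, as a percentage of the gene's WT mean on a linear axis from 0 (gray circles, WT; red squares, cKO; bars, mean ± SD, n = 3 per genotype). The Stx11 cKO samples lie far below the WT samples and the Rab27a cKO samples above them, the Vamp7 cKO samples lie below WT samples that spread widely, and Vamp8 and Lyst overlap.

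METTL3 acts on short sequences in messenger RNA, of which GGACT is the common core. GGACT was searched on the sense strand of 1 principal transcript per gene, and 91.4% of 11806 transcripts held at least 1 copy, with a median of 1.05 per kb. Of the 9 granule genes with a transcript sequence here, 7 held at least 1 copy and 7 lay below that median per kb. Those below it were the 5 searched genes that differed between genotypes, and Lyst (0.83 per kb) and Lamp1, which did not differ. Ap3b1, at 0.99 per kb, lay just under the median. Unc13d, which did not differ, held 5 copies (1.5 per kb), all in its coding sequence, and Vamp8 held 2 in a short transcript (2.44 per kb). Stx11 held a single copy in 4173 bases (0.24 per kb), Rab27a 1 copy, Stxbp2 1, Ap3b1 4 and Lyst 11, whereas Snap23 and Lamp1 held none. The copy nearest to the stop codon is shown for the called genes that had one, since m6A is known to gather near stop codons, with GGACT in capitals (GRCm38, written 5′ to 3′ on the gene's strand).
Stx11, 3′ untranslated region, chr10:12939364-12939388, minus strand: aactctggaaGGACTttctttcttc
Rab27a, 3′ untranslated region, chr9:73096853-73096877, plus strand: ttgaaataagGGACTctttgaaaca
Ap3b1, 3′ untranslated region, chr13:94565762-94565786, plus strand: gcttacatctGGACTtcagaatctg
Stxbp2, coding sequence, chr8:3633858-3633882, plus strand: ccctgattgcGGACTtccagggaac
The Ap3b1 copy started 16 bases from the stop codon, the Rab27a copy 1409, the Stxbp2 copy 1513 and the Stx11 copy 1739. A match of letters is a description of the transcript, and methylation was not measured in these samples.

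RAB27A and Munc13-4 tether and prime the granule. Rab27a (chr9:73044854-73097629, plus strand) stood at 5764, 5454 and 5543 normalized counts in the WT samples and 6885, 7256 and 7271 in the cKO samples. Every cKO sample was above every WT sample. The log2 fold change was 0.35 ± 0.0374 (SE, 95% confidence interval 0.28 to 0.43), a rise of 27.8% (limma, adjusted p = 2.64e-08). In the whole table, 12.3% of genes had a log2 fold change at or above that of Rab27a, so that the rise was one of many of its size. That share covers genes of all read levels, and the share among genes with as many reads as Rab27a was not computed. Of the exon bases of Rab27a, 3.84% are shared with an annotated pseudogene on the same strand.

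Unc13d (chr11:116062095-116077961, minus strand) gave 12132, 11714 and 11959 in WT and 12150, 12387 and 12010 in cKO. The genotypes overlapped, with the lowest cKO sample below the highest WT sample. Its log2 fold change was 0.030 ± 0.0320 (SE, interval −0.036 to 0.095; limma, adjusted p = 0.511). Under scaling to equal totals the Unc13d difference was 0.079 and passed the threshold (limma, adjusted p = 0.0398), and after correction for GC content and transcript length it was −0.00097. Leaving out WT replicate 2 gave 0.016 and leaving out cKO replicate 2 gave 0.018.

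The promoters of Rab27a are shown in part because this was the one granule gene that rose. RefSeq (GRCm38.p6) placed 2 start sites in Rab27a, and 5 motifs were searched on both strands in the 300 bases around each start: the E-box CACGTG, the ETS core GGAAGT, the RUNX site TGTGGT, the AP-1 site TGACTCA and the T-box site AGGTGTGA. No match shown here overlapped another. ETS, RUNX and T-box factors (T-bet and Eomes among the last) are well known regulators in NK cells. Tbx21, which encodes T-bet, rose by 0.23 on the log2 scale (limma, adjusted p = 5.47e-07). Eomes did not pass the threshold, at −0.010 (limma, adjusted p = 0.828). Their part in the Rab27a difference was not tested. The promoter at the upstream start held a RUNX match and, next to it, the only T-box match among the 9 granule gene promoters, 140 and 132 bases before the start (in capitals).
Rab27a upstream promoter, chr9:73044660-73044695, plus strand: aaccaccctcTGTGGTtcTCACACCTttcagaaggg
Of 32851 mouse promoters of the same length, 1.28% held this T-box sequence, 16.8% the RUNX sequence and 23.8% the ETS sequence, which lay in both Rab27a promoters and in that of Snap23. The RUNX sequence was also in the promoter of Lamp1, which did not rise. Promoters were found for 8 of the 10 genes. That of Stx11, with 71.0% G and C, held none of the 5 motifs, and neither did those of Vamp8, Lyst and Ap3b1. No match says only that these letters are not in the window.

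Syntaxin-11 is the plasma membrane SNARE whose loss impairs granule release in human NK cells. Stx11 (chr10:12938209-12964298, minus strand) was measured at 20537, 21075 and 20214 normalized counts in WT and 13585, 13411 and 13155 in cKO samples. The replicates of each genotype lay close together and the gap between genotypes was many times their spread. Stx11 fell by 0.62 on the log2 scale (SE 0.0311, interval −0.69 to −0.56), and its mean fell by 35.1% (limma, adjusted p = 1.28e-14). This was the largest difference among the granule genes, and it ranged from −0.65 to −0.57 over 12 alternative treatments of the data. Over all genes, 449 (3.10%) had a log2 fold change at or below that of Stx11, and 275 of these passed the threshold. Few genes with as many reads fell as far: of the 711 genes with a mean normalized count at least that of Stx11, 7 did, Stx11 included.

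SNAP23 is the widely expressed partner that supplies a pair of helices to SNARE complexes at the plasma membrane. Snap23 (chr2:120567671-120601255, plus strand) gave 3837, 3856 and 3682 in WT and 3334, 3399 and 3180 in cKO. All cKO samples were below all WT samples. The decrease was smaller than that of Stx11, with a log2 fold change of −0.20 ± 0.0424 (SE, interval −0.29 to −0.11; limma, adjusted p = 5.07e-04).

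Munc18-2, the chaperone of syntaxin-11, is encoded by Stxbp2 (chr8:3630955-3643644, plus strand). Its values were 8777, 8437 and 8541 in WT and 8269, 8117 and 7556 in cKO. The genotypes did not overlap, but the third cKO sample lay well below the other two. Stxbp2 fell by 0.11 on the log2 scale (SE 0.0371; limma, adjusted p = 0.0257), and its mean fell by 7.04%. The call was lost without WT replicate 1 (limma, adjusted p = 0.0990), without cKO replicate 3 (0.205) and under equal totals (0.222).

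On the vesicle side, Vamp7 and Vamp8 gave different values. VAMP7 carries an additional regulatory domain and serves lysosome exocytosis, and VAMP8 is a main vesicle SNARE of secretory cells. Vamp7 lies on the unplaced scaffold GL456233.1 of GRCm38 (bases 10738 to 39148, minus strand). It was the least abundant of the 10 genes by count, at 982, 886 and 744 in WT and 603, 630 and 683 in cKO. The lowest WT sample was above the highest cKO sample, although the WT samples spread widely, with a coefficient of variation of 13.8% where counting alone gives at most 4.11%. Vamp7 fell by 0.44 on the log2 scale (SE 0.0889, interval −0.62 to −0.26; limma, adjusted p = 2.84e-04). The decrease passed the threshold in all 12 alternatives, at −0.55 to −0.35.

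Vamp8 (chr6:72385223-72390703, minus strand) stood at 2777, 3131 and 2833 in WT and 2690, 2950 and 2930 in cKO. The genotypes overlapped. Its log2 fold change was −0.028 ± 0.0504 (SE, interval −0.13 to 0.076; limma, adjusted p = 0.713). The sign was not stable, since it was 0.025 without WT replicate 2, 0.015 without cKO replicate 1 and 0.022 under equal totals.

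LYST and AP-3 act before fusion. Lyst (chr13:13590397-13778803, plus strand), the regulator of lysosome size mutated in the beige mouse, gave 3856, 3654 and 3906 in WT and 4006, 3624 and 4192 in cKO. The second cKO sample was the lowest of all 6 and the third the highest. The log2 fold change of 0.048 ± 0.0475 (SE, interval −0.049 to 0.15) did not pass the threshold (limma, adjusted p = 0.463). Single samples moved it, to 0.019 without WT replicate 2, 0.11 without cKO replicate 2 (limma, adjusted p = 0.0784) and 0.0026 without cKO replicate 3. Ap3b1 (chr13:94358960-94566317, plus strand), which encodes the β3A subunit of AP-3, gave 7458, 7063 and 7238 in WT and 6442, 6978 and 6689 in cKO. The groups did not overlap, but the second cKO sample nearly reached the lowest WT sample. Ap3b1 fell by 0.11 on the log2 scale (SE 0.0376; limma, adjusted p = 0.0181). The call was lost without WT replicate 1 (limma, adjusted p = 0.0864), without cKO replicate 1 (0.140) and under equal totals (0.166).

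Lamp1 (chr8:13159161-13175338, plus strand), which encodes the degranulation marker CD107a, was measured at 6475, 6803 and 6514 in WT and 6354, 6502 and 5849 in cKO. The second cKO sample lay above the lowest WT sample, so that the genotypes overlapped. Its log2 fold change was −0.083 ± 0.0401 (SE, interval −0.17 to −0.00013) and did not pass after adjustment over all genes (limma, adjusted p = 0.112). It passed after correction for GC content and transcript length (limma, adjusted p = 0.0228, log2 fold change −0.11) and without cKO replicate 2 (0.0430), but was −0.037 without cKO replicate 3 (0.548) and −0.033 under equal totals (0.540). Of the Lamp1 exon bases 9.31% overlap Grtp1 on the other strand, and the library kit is not described as marking strand.

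The Lamp1 promoter is shown because it is the granule gene with the densest set of E-boxes, the sequence bound by TFEB and its relatives of the MiT family, which are known for switching on lysosomal genes. It held 4 copies of CACGTG, starting 61, 45, 28 and 15 bases before the RefSeq start (in capitals).
Lamp1 promoter, chr8:13159090-13159161, plus strand: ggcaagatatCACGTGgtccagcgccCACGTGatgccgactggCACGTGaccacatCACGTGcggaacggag
At least 1 copy was found in 7.15% of all mouse promoters and in 3 of the 9 granule gene promoters (Lamp1, Stxbp2 and the downstream start of Rab27a), and as many as 4 copies in 8 of 32851. The MiT factors themselves moved in opposite directions. Tfeb rose from 4552 ± 41.7 to 5661 ± 136 normalized counts (SD, n = 3), with a log2 fold change of 0.31 ± 0.0375 (SE; limma, adjusted p = 1.95e-07). Tfe3 fell from 3554 ± 49.6 to 2749 ± 18.5 (SD, n = 3), with a log2 fold change of −0.37 ± 0.0419 (SE; limma, adjusted p = 8.28e-08). Mitf and Tfec were listed and did not pass the threshold. Of 14 other lysosomal membrane genes listed, 3 rose and 2 fell. Among them Slc11a2, an iron transporter, rose by 0.24 and Cd68 by 0.20, while Laptm4a fell by 0.20 and Laptm5 by 0.093 on the log2 scale. The Laptm5 call was lost in 3 of the 12 alternatives, equal totals among them, and the Cd68 call in 2. Cd68 is also a macrophage marker, and the macrophage and dendritic cell list had 4 of 6 listed genes higher and 1 lower. Their summed level was 47206 to 50107 in WT and 50092 to 51671 in cKO. Most of that sum was Itgax alone, with a mean of 40864 in WT and 43194 in cKO. The lower gene, Lyz2, fell by 0.40 on the log2 scale (limma, adjusted p = 8.87e-06). The source of the Cd68 difference was not tested.

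**Figure D2:**
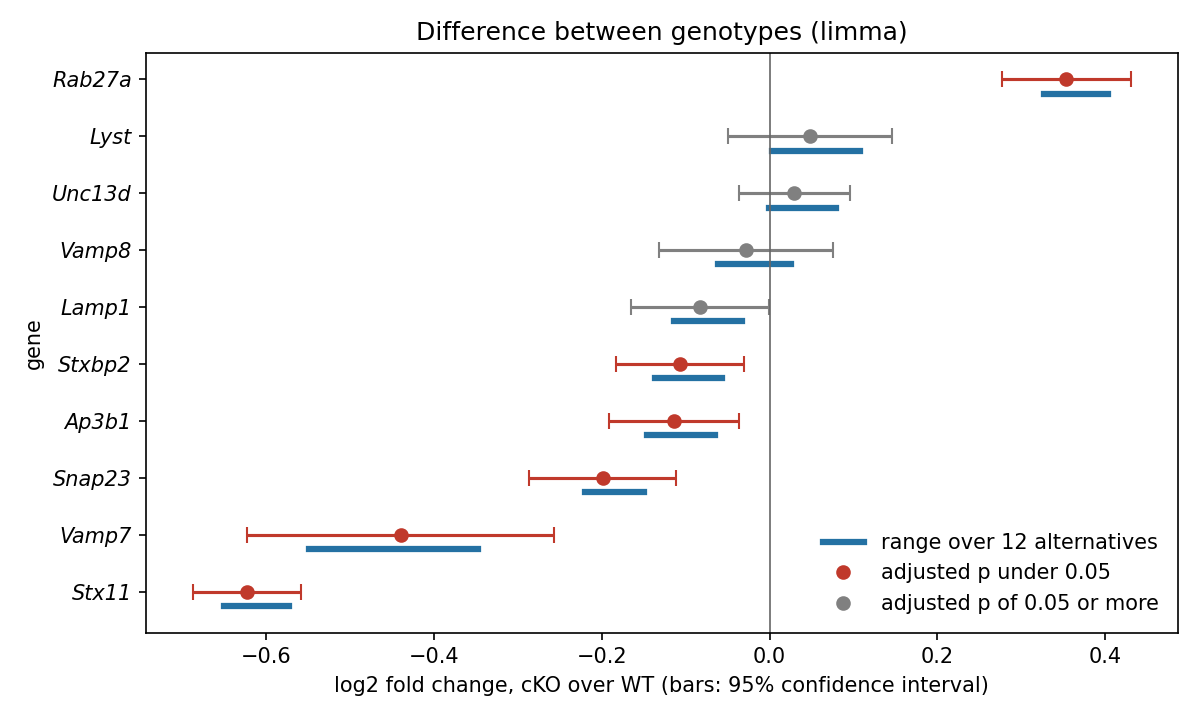
Log2 fold change (cKO over WT) of the 10 granule genes with 95% confidence intervals from limma, n = 3 per genotype. Stx11 is lowest at −0.62, Rab27a highest at 0.35, and the intervals of Vamp8, Unc13d and Lyst span 0.

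Exact permutation of the 6 sample labels, run for each granule gene, gave the smallest two-sided p that 3 against 3 allows, 0.1, for the 6 genes without overlap. The exact permutation p was 0.2 for Unc13d and for Lamp1, 0.5 for Lyst and 0.8 for Vamp8. The labels do not say that the 3 samples of a genotype came from separate mice, so the p-values measure the spread between these samples, which may be technical.

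Because the products of these genes work as pairs, the ratio of partner genes was formed within each sample, where scaling between samples cancels. Unc13d over Rab27a was 2.10, 2.15 and 2.16 in WT and 1.76, 1.71 and 1.65 in cKO, a difference of −0.32 on the log2 scale. There was less Unc13d message for each Rab27a message in every cKO sample. Stxbp2 over Stx11 was 0.427, 0.40 and 0.423 in WT and 0.609, 0.605 and 0.574 in cKO, a log2 difference of 0.52, so that the chaperone message was less outnumbered by that of its syntaxin. Snap23 over Stx11 rose likewise, from 0.187, 0.183 and 0.182 to 0.245, 0.253 and 0.242, a log2 difference of 0.42. Between the vesicle SNAREs, Vamp7 over Vamp8 was 0.354, 0.283 and 0.262 in WT and 0.224, 0.213 and 0.233 in cKO, a log2 difference of −0.41. The first WT sample stood apart from the other two in this ratio. Ap3b1 over Ap3d1, another large AP-3 subunit, was 0.594 to 0.624 in WT and 0.539 to 0.563 in cKO, a log2 difference of −0.14. In these 5 pairs the genotypes did not overlap, and each reached the exact permutation p of 0.1, the smallest possible, or 0.12 adjusted over the 6 pairs compared. Of single genes 45.7% did not overlap either, and the share over other gene pairs was not computed. Each ratio difference is the difference of the 2 genes' log2 fold changes, so the ratios restate those values. The 2 ratios over Stx11 also share that gene. The sixth, Lamp1 over its close relative Lamp2, overlapped at 3.32 to 3.88 in WT and 3.09 to 3.51 in cKO (log2 difference −0.11, exact permutation p = 0.4). The ratios compare counts, not molecules per cell, since each gene's length is part of its count.

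**Figure D3:**
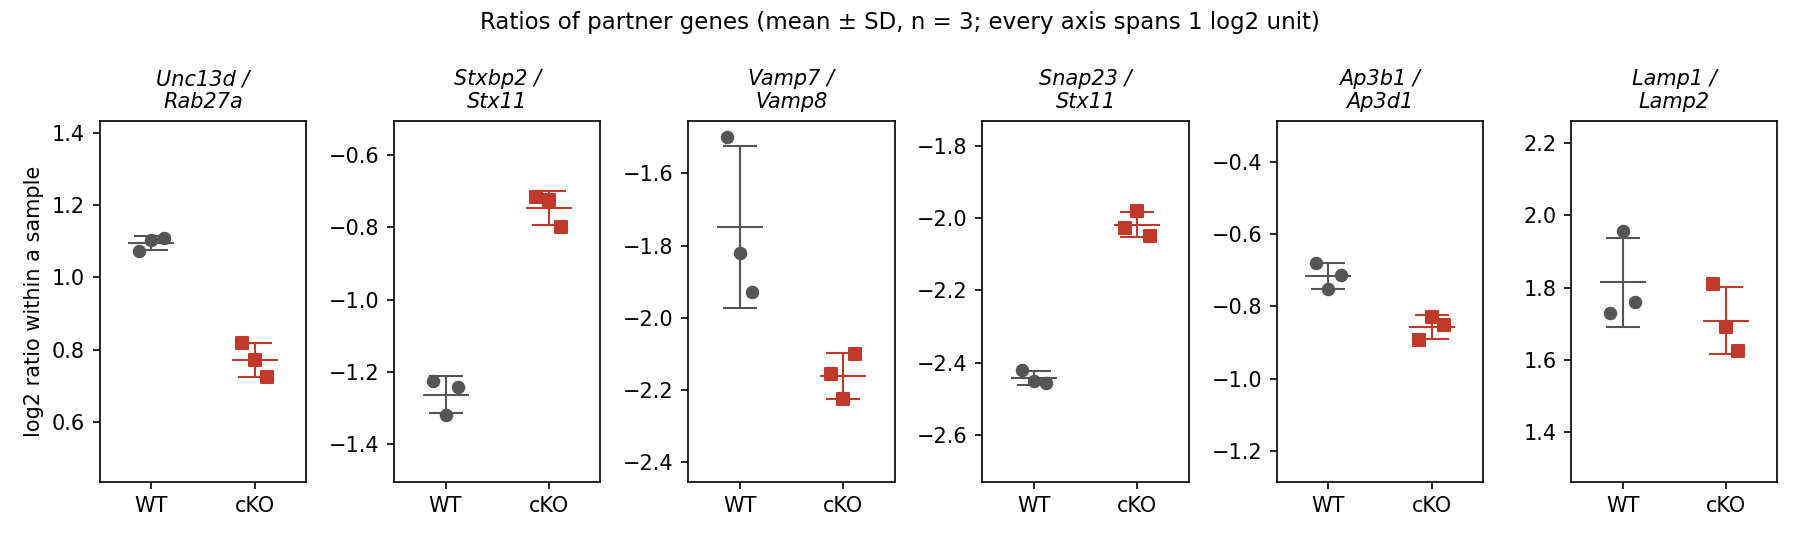
Log2 ratio of normalized counts of 6 pairs of partner genes in each sample, with every axis spanning 1 log2 unit (gray circles, WT; red squares, cKO; bars, mean ± SD, n = 3 per genotype). The 2 ratios over Stx11 are higher in every cKO sample, and Unc13d over Rab27a, Vamp7 over Vamp8 and Ap3b1 over Ap3d1 are lower.

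Expressed as normalized counts per kb of exons, the granule genes spanned a wide range of levels in WT NK cells. Stx11 was highest at 4896 per kb and Lyst lowest at 218 per kb. Between them came Unc13d at 2551, Lamp1 at 2466, Stxbp2 at 2064, Ap3b1 at 1595, Rab27a at 1440, Vamp8 at 1261, Snap23 at 883 and Vamp7 at 344 per kb. Unc13d and Lamp1 overlapped between samples, and the other neighbours in this order did not. In cKO cells Stx11 was still highest, at 3180 per kb. Rab27a, at 1840 per kb, moved above Ap3b1, at 1474, and its samples overlapped those of Stxbp2, which had a mean of 1919 per kb. The order depended on the length used: over the principal transcript alone, WT Vamp8 stood at 3553 per kb, above Lamp1 at 2960 and just below Unc13d at 3577.

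**Figure D4:**
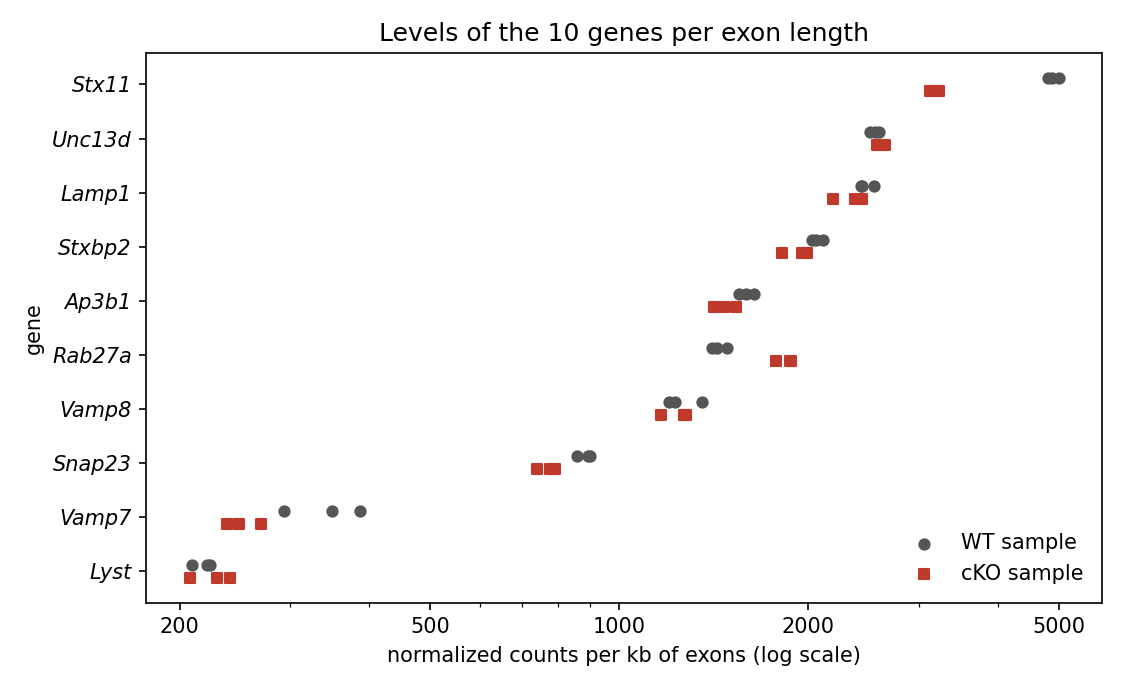
Normalized counts per kb of exons (log axis) of the 10 granule genes in each sample (gray circles, WT; red squares, cKO; 3 per genotype), ordered by the WT mean. Stx11 is the highest in both genotypes, and the cKO samples of Rab27a lie to the right of those of Ap3b1.

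The genes whose pattern over the 6 samples was closest to that of Stx11 were Klri2, Rgs16 and Tnfrsf18. Likeness was the root mean square difference of log2 values centred on each gene's mean, at 0.0194, 0.0213 and 0.0230. Klri2, a lectin-like receptor gene of NK cells, had a log2 fold change of −0.62, Rgs16, a regulator of G protein signaling, −0.63, and Tnfrsf18, which encodes the receptor GITR, −0.59. Since they were picked by likeness to Stx11, these values are a description and carry no test.

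Around the granule genes, 12 lists of related genes were examined, with 128 of their 151 genes listed in the table. Of these, 24 were higher and 30 lower in cKO (limma, adjusted p under 0.05), or 42.2%, against 36.6% of all genes, with a median log2 fold change of −0.015. Under equal totals the split was 29 higher and 21 lower, and after the GC and length correction 21 and 38.

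Among proteins that bind RAB27 and their relatives, 5 of 10 genes were listed, 3 fell and none rose, with a list median of −0.16. Rph3al, an effector of RAB27, fell by 0.34 (SE 0.0909; limma, adjusted p = 0.00458), and Rab27b, the close relative of Rab27a, by 0.17 (SE 0.0621; limma, adjusted p = 0.0306), in the opposite direction to Rab27a. The Rab27b call was lost in 5 of the 12 alternatives. The third, Sytl2, named after its values were seen, encodes an effector that tethers RAB27A granules to the membrane and fell by 0.16 (SE 0.0332; limma, adjusted p = 3.70e-04), from 9553, 9275 and 9254 to 8411, 8282 and 8432 normalized counts. The other 2, Sytl1 and Sytl3, did not pass the threshold.

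Of the other SNAREs 28 were listed, with 4 higher and 9 lower and a median log2 fold change of −0.095, or 5 higher and 6 lower under equal totals. Among the relatives of the granule VAMPs, those with the largest increases were Vamp1 and Vamp2. Vamp1 rose from 2753 ± 205 to 3789 ± 63.2 (SD, n = 3; log2 fold change 0.46, SE 0.0480; limma, adjusted p = 1.81e-08) and Vamp2 rose from 8977 ± 226 to 11133 ± 117 (0.31, SE 0.0331; limma, adjusted p = 3.05e-08). Vamp2 encodes the synaptic vesicle SNARE synaptobrevin-2, which also serves granule release in mouse cytotoxic T cells. Of the other VAMP genes of that list, named after their values were seen, Vamp4 fell by 0.13 (limma, adjusted p = 0.0299), and Vamp3 (log2 fold change −0.062) and Vamp5 (0.036) did not pass the threshold. Stx5a, the Golgi syntaxin, fell by 0.37 (SE 0.0340; limma, adjusted p = 2.47e-09), and Stx6, a syntaxin of the trans-Golgi and endosomes, by 0.28 (SE 0.0484; limma, adjusted p = 3.70e-05).

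SNARE chaperones and the disassembly machinery gave 2 higher and 1 lower of 13 listed. Stxbp3, the Munc18 relative of Stxbp2, rose by 0.24 (SE 0.0480; limma, adjusted p = 2.92e-04), and Napa, the adaptor that helps take spent SNARE complexes apart, fell by 0.16 (SE 0.0312; limma, adjusted p = 1.56e-04). Vps33a rose by 0.12 but lost its call in 6 of the 12 alternatives. Of the other Munc13 and synaptotagmin genes 6 of 16 were listed, with 2 higher and 1 lower. Syt11, a synaptotagmin gene, rose by 0.19 with an SE of 0.0720 (limma, adjusted p = 0.0413), but lost its call in 6 of the 12 alternatives. Baiap3, a Munc13 relative, fell from 24862 ± 443 to 21796 ± 259 normalized counts (SD, n = 3; log2 fold change −0.19, SE 0.0298; limma, adjusted p = 1.23e-05), and Doc2g rose by 0.87 at a low level, from 58.0 ± 8.49 to 107 ± 15.6 (SD, n = 3).

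The remaining AP-3 subunits did not follow Ap3b1 as 1 complex. Of 5 listed, Ap3s1 fell by 0.28 (SE 0.0473; limma, adjusted p = 3.81e-05) and Ap3m2 by 0.22 (SE 0.0605; limma, adjusted p = 0.00461), Ap3s2 rose by 0.34 (SE 0.0762; limma, adjusted p = 8.35e-04), and Ap3d1 did not pass at 0.027 (SE 0.0317; limma, adjusted p = 0.542). BLOC complexes, which work with AP-3 in making lysosome-related organelles and several of whose subunits are mutated in Hermansky-Pudlak syndrome, had 5 higher and 1 lower of 13, with a median of 0.040. Hps4 rose by 0.37 (SE 0.0665; limma, adjusted p = 6.87e-05) and Bloc1s5 by 0.41 (SE 0.132; limma, adjusted p = 0.0153), while Snapin fell by 0.17 (SE 0.0524; limma, adjusted p = 0.00982). The calls of Bloc1s5 and Snapin were each lost in 3 of the 12 alternatives.

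**Figure D5:**
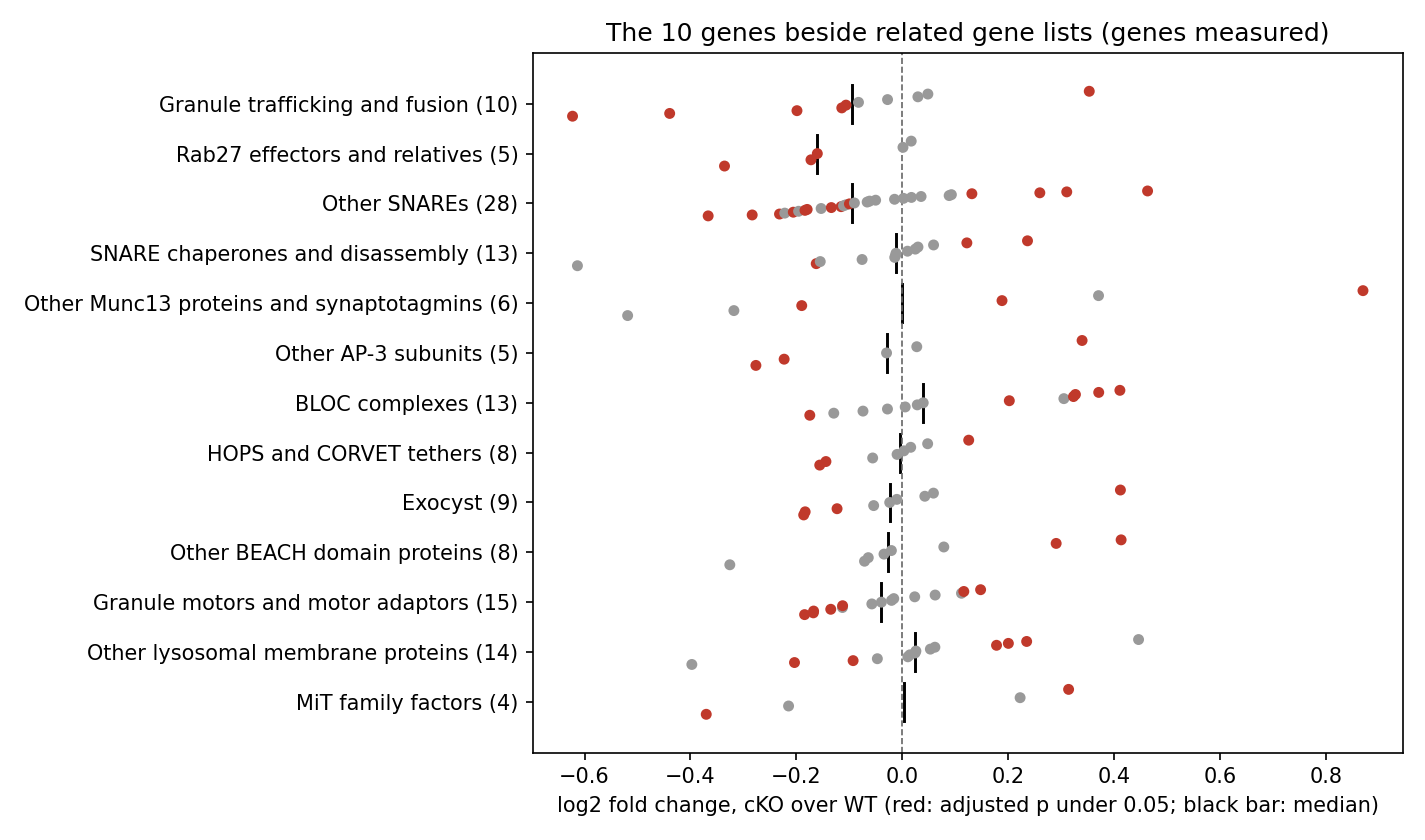
Log2 fold change (cKO over WT) of each listed gene in the granule set and 12 related lists, with the number of listed genes in brackets (red, adjusted p under 0.05; gray, not past it; black bar, list median). Most points lie within 0.4 of 0 and nearly every list holds genes on both sides; the RAB27 list holds called genes on the lower side only.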

How the data were processed

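The authors sequenced polyadenylated RNA as paired reads and aligned them to GRCm38 with HISAT2, counted genes with featureCounts (1.5.0-p3) and normalized with DESeq2. The submitters' processing notes give HISAT2 2.0.5 and 2.0 and DESeq2 1.16.1, and the study's methods give other versions of both. Whether counting used strand is not given in the sources used here. The deposited signal is the read count divided by the sample's size factor. Each value divided by its sample's smallest step was a whole number within 0.01 reads, which gave the read totals. The authors also deposited columns of their own comparison (a mean over the 6 samples, log2 fold change with its error, a test score, p-values and adjusted p-values), which were not used.

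The main test was limma (3.58.1, R 4.3.3) with a mean-variance trend on log2(value + 1) over all genes that reached 1 in 3 or more samples (0 of 14490 removed), with Benjamini-Hochberg adjustment over all of them. Log2 fold changes are on that scale and understate the changes of low genes. Groups came from the genotype labels. No count model was run. A test on simulated data preceded the fit. Of the gene names, 97.2% matched 1 gene of GENCODE M21 (GRCm38), the source of coordinates, lengths and transcripts, and promoters came from RefSeq GRCm38.p6. Intervals are 95%. The 10 genes and the lists were chosen with earlier results of these data known. Named list genes are, per list, up to 2 higher and 2 lower by size of log2 fold change among called genes with a mean of at least 1 CPM; the 3 genes closest to Stx11 and the partners Ap3d1 and Lamp2 were named too. Alternatives changed the pseudocount (0.1), the filter, the scaling, a GC and length correction (splines, 5 degrees of freedom), a block by replicate number and the omission of each sample. Replicate numbers were checked for pairing: the correlations of deviations were −0.040, 0.056 and 0.038, too weak to settle whether the samples were paired.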

Additional observations from a re-analysis of the deposited data

How the results depend on the processing

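The number of granule genes called was 6, and 12 alternatives were run: a pseudocount of 0.1, no filter, at least 1 CPM in at least 3 samples, equal totals, GC content and length corrected, a replicate block, and leaving out each of the 6 samples. The count ran from 4 to 7 over the samples left out, was 5 under equal totals, and 7 after the GC and length correction. Stx11, Vamp7, Snap23 and Rab27a passed the threshold with the same sign in all 12. The alternative with no filter could not differ from the main fit, because the filter removed 0 genes. The related list genes gave 54 calls, and 42 to 49 when a sample was left out; all genes gave 5307 calls, and 4417 to 4922. With the replicate block 6 granule genes, 58 related genes and 5543 of all genes were called. Whether the numbers pair the samples is not known: 2 of 3 correlated best with their own number, but 1 correlation was negative.

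Vamp8 ranged from −0.061 to 0.025 over the samples left out, and its sign turned (0.022 under equal totals, 0.025 without WT replicate 2, 0.015 without cKO replicate 1), as did that of Unc13d (−0.00097 after the GC and length correction). The cause was not tested. Vamp7 had no transcript sequence here and entered that correction uncorrected. Of 36 named list genes 24 were called in every alternative and 0 changed sign. The ratios of partner genes kept their sign in all 8 alternatives that apply to them. The planned fits with edgeR, DESeq2 and limma-voom were not run. The difference between genotypes was estimated with 3 samples each, and Ap3b1, Stxbp2 and Lamp1 crossed the threshold when single samples were left out.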

Other observations

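Several complexes that bring vesicles to their target also held genes on both sides. Of the HOPS and CORVET tethers, which join endosomes and lysosomes, all 8 were listed, with 1 higher and 2 lower. Vps16 fell by 0.16 (SE 0.0349; limma, adjusted p = 8.19e-04) and Vps11 by 0.14 (SE 0.0376; limma, adjusted p = 0.00338). Vps18 rose by 0.13 (SE 0.0395; limma, adjusted p = 0.0136) and lost its call in 3 of the 12 alternatives. Of the 9 exocyst subunits, which tether secretory vesicles at the plasma membrane, 1 was higher and 3 lower. Exoc7 fell by 0.19 (SE 0.0450; limma, adjusted p = 0.00172) and Exoc2 by 0.18 (SE 0.0361; limma, adjusted p = 2.10e-04), and Exoc8, at a low level, rose by 0.41 with the call lost in 3 alternatives.

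The other BEACH domain genes, relatives of Lyst, gave 2 higher and 0 lower of 8 (2 and 2 after the GC and length correction). Wdr81, an endosomal protein, rose from 4091 ± 157 to 5004 ± 154 normalized counts (SD, n = 3; log2 fold change 0.29, SE 0.0409; limma, adjusted p = 2.56e-06), and Wdfy4, known from antigen cross-presentation in dendritic cells, rose by 0.41 (SE 0.101; limma, adjusted p = 0.00188) at 372 ± 7.47 in WT and 498 ± 49.5 in cKO. Of 15 listed motor and motor adaptor genes 2 were higher and 5 lower, or 3 and 3 under equal totals. The kinesin light chain genes Klc4 and Klc2 fell by 0.18 and 0.17, the latter losing its call in 4 alternatives, and Hook3 and Myo9b rose by 0.15 and 0.12, each losing its call in 1. For other cell types, erythroid genes (5 of 6 listed) gave 0 calls, and of 4 listed genes of other innate lymphoid cells 1, Il7r, was higher in cKO (log2 fold change 0.52; limma, adjusted p = 1.37e-06).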
